A study of Mus musculus with 12 samples.

Results

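Granzymes are the serine proteases that cytotoxic T lymphocytes (CTL) store in granules and release into target cells. The 10 mouse granzyme genes Gzma, Gzmb, Gzmc, Gzmd, Gzme, Gzmf, Gzmg, Gzmk, Gzmm and Gzmn were followed on Affymetrix arrays by every probe set whose annotation names at least 1 of them. They are 10 of the 19324 genes that the array's annotation names, and have 12 of the 45037 probe sets that are not controls. Of the 12, 11 name 1 granzyme, with a pair for Gzmd, and 1 names both Gzme and Gzmd. Transcripts of Gzmd and Gzme are alike, so these probe sets may read both, and their values are uncertain as values of 1 gene.

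All 12 arrays held RNA of CTL raised from the spleen of C57BL/6 mice, 3 cultures in each of 4 groups. PDK1 null CTL came from PDK1fl/fl TamoxCre mice, in which loxP sites flank both copies of the gene for the kinase PDK1 (Pdpk1) and a tamoxifen-activated Cre is expressed from the ROSA26 locus. Cre control CTL came from TamoxCre mice with unaltered Pdpk1, and both groups received 0.6 μM 4-hydroxytamoxifen (4OHT) for the final 72 h. AktI CTL and wild type CTL were parts of the same culture from each of 3 wild type mice, the first with 1 μM AktI-1/2, an inhibitor of the kinase Akt, for the final 48 h. Every culture was stimulated for 48 h with CD3 antibody and IL-2, then grown on for 5 days with IL-2 at 20 ng/ml. The Cre acts in every cell that carries it, and the labels state no age or sex.

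Granzyme A and granzyme K cut proteins after basic residues, granzyme B cuts after aspartate and activates caspases, and granzyme M cuts after methionine or leucine. The mouse has, besides these, a cluster of genes beside Gzmb that humans lack, from Gzmc to Gzmg, whose substrates are less well known, and Gzmn, described from testis. Perforin opens the way for the granzymes into the target cell. In CTL, IL-2 maintains granzyme transcription, and PDK1 is the kinase that phosphorylates the activation loop of Akt. The comparisons ask which granzyme mRNAs need PDK1 and which need Akt activity in CTL held in IL-2.

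On GRCm38.p6, 7 of the 10 genes lay within 145 kb of chromosome 14 (chr14:56117619-56262334), in the order Gzme, Gzmd, Gzmg, Gzmn, Gzmf, Gzmc and Gzmb. Gzma and Gzmk lay on chromosome 13 and Gzmm on chromosome 10. The 250 bases before the start of each gene, from RefSeq, are shown for 5 genes because likeness of the promoters and likeness of the changes with AktI did not go together throughout. Gzmd and Gzmg (chr14:56132594-56132843 and chr14:56159580-56159829) belong to the granzymes with the largest changes with AktI, Gzmc (chr14:56234658-56234907) has a similar promoter and a smaller change, and Gzmb (chr14:56262335-56262584) and Gzmk (chr13:113180966-113181215) have unlike promoters. All 5 are read from the minus strand, 5′ to 3′ towards the gene. The start used for Gzmc lies inside the annotated span of that gene (chr14:56231397-56241647), and no other start of Gzmc was examined. The bases used for Gzmd also reach into the annotated span of their gene, which ends at chr14:56132603. So do those used for Gzmn (chr14:56174600-56174849), whose span ends at chr14:56174612. Capitals mark the 3 blocks of at least 12 bases that the promoters of Gzmc, Gzmd, Gzme, Gzmf and Gzmg have in common letter by letter.
Gzmd: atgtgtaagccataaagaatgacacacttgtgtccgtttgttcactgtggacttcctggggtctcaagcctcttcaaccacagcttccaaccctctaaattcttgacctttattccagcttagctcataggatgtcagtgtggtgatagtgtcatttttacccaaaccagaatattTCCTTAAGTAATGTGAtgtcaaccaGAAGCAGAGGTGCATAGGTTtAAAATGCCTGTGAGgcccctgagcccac
Gzmg: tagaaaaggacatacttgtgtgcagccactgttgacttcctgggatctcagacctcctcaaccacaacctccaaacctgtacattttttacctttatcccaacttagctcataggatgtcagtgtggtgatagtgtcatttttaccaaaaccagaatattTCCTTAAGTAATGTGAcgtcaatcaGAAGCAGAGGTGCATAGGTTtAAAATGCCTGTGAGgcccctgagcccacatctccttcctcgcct
Gzmc: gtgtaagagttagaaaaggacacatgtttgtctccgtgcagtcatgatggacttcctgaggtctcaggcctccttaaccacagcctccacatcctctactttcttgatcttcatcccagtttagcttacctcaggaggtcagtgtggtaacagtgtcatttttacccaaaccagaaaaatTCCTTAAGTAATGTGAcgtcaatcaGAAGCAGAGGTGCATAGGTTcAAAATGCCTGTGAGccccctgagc
Gzmb: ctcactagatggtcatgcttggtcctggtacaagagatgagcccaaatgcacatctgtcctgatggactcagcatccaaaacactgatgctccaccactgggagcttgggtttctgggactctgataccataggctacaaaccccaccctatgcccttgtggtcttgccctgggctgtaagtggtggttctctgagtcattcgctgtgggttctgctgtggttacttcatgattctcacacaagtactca
Gzmk: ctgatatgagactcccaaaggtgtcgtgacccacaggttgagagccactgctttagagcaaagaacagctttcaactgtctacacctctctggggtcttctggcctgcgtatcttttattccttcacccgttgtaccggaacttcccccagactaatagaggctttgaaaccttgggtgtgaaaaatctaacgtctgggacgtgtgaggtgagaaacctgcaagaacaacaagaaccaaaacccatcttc

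The shared blocks have 16, 20 and 14 bases, and in Gzmd the one of 20 bases lies 49 to 30 bases before the start. Among the 10 pairs of Gzmc to Gzmg promoters 71.5% to 94.8% of aligned positions were identical, with the highest share between Gzmd and Gzme. The other 35 pairs had 46.0% to 54.5%. Gzmn lies inside the same stretch of chromosome 14, and its promoter shared 48.8% to 54.5% with those of the other 6 genes there, within the range of the other 35 pairs.

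**Figure D1:**
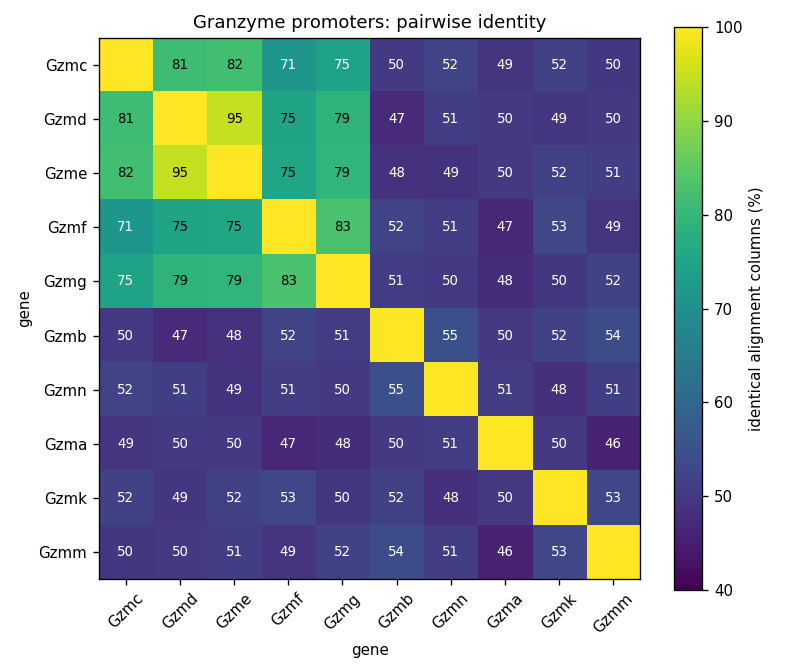
Percent of identical alignment columns between the 250 bases before the start of each pair of granzyme genes, rows and columns being genes and colour the percent. The 5 genes Gzmc to Gzmg form a block of 71.5% to 94.8%, and all other pairs stay at or under 54.5%.

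Motifs of transcription factor families were searched on both strands of the same 250 bases. The Runx motif TGTGGT was present in 8 of the 10 granzyme promoters, all but those of Gzmk and Gzmn, against 14.045% of the 32851 promoters of the table. In each of Gzmc, Gzmd, Gzme, Gzmf and Gzmg it occurred on both strands, once each. The promoters of these genes are alike (71.5% to 94.8% identical), so their matches are not independent of each other. Setting 8 of 10 beside the share of all promoters is therefore no test of enrichment. The AP-1 motif TGANTCA was found in Gzmb (6.75% of all promoters) and the STAT motif TTCNNNGAA in Gzmm (7.02%). The Forkhead motif TGTTTAC (3.17%) and the T-box motif AGGTGTGA (1.12%) were found in 0 of the 10. These are matches of letters in a short window and say nothing about binding.

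The values are log2 signals, so a difference of 1 is 2-fold. The array medians lay between 4.60 and 4.62 in the Pdpk1 experiment and between 5.10 and 5.14 in the Akt experiment, which were probably normalized separately, so levels were compared within an experiment and effects between them. A level near that of receptors not used by T cells (the 95th percentile of 78 olfactory and vomeronasal receptor probe sets) was 4.45 and 5.01. A change passed, and is called a rise or a fall, at a Benjamini-Hochberg adjusted p under 0.05 in limma and at least 1.5-fold. Pdpk1 mRNA did not separate the genotypes (log2 signal 8.95 to 9.09 in PDK1 null and 8.96 to 9.03 in Cre control CTL, and 8.67 to 8.74 and 8.69 to 8.78 by its other probe set), and as the place of both probe sets relative to the loxP sites was not established, these values are no check of the labels. CD8 T cell markers were high in all groups (Cd8a group means 11.3 to 11.5, Cd8b1 11.2 to 12.2). Cd8b1 was 0.50 higher in AktI than in wild type CTL (limma adjusted p = 0.0035), which is under 1.5-fold. The NK cell receptor gene Ncr1 was below background in all groups, while Klre1, another NK cell marker, was above it in all (group means 5.62 to 8.20). Cd4 was above background in all groups too (group means 6.52 to 6.92). As the cultures were measured in bulk, fewer cells of a type and less RNA per cell cannot be told apart.

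Gzmb was at the top of the scale in both experiments, and Gzma was nearer to it in the Pdpk1 experiment than in the Akt experiment. Gzmb ranked 9 to 12 of 45037 probe sets in PDK1 null CTL and 4 to 5 in Cre control CTL. It ranked 28 to 49 in AktI CTL and 4 to 5 in wild type CTL. In Cre control CTL its log2 signal was 0.0801 to 0.0977 below that of the brightest probe set of the array, and in wild type CTL 0.101 to 0.155 below. Gzma ranked 5 to 33 in PDK1 null and 9 to 13 in Cre control CTL, and 205 to 247 in AktI and 134 to 146 in wild type CTL. There was thus little room on the scale above Gzmb in Cre control and wild type CTL, and above Gzma in the Pdpk1 experiment. Other granzymes were near the top in Cre control CTL too. Gzmg was 0.289 to 0.471 below the brightest probe set there. The probe set of Gzme and Gzmd was 0.364 to 0.55 below it, and the brighter Gzmd probe set 0.409 to 0.562. In the Akt experiment Gzma was 0.865 to 0.957 below the brightest probe set in wild type CTL and 1.28 to 1.58 below it in AktI CTL. A rank places the signal of a probe set on its array and is not an amount of mRNA.

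The probe sets of Gzmc to Gzmg ranked higher on the arrays of the Pdpk1 experiment than on those of the Akt experiment. Gzmg ranked 84 to 181 in PDK1 null and 12 to 41 in Cre control CTL, but 9996 to 13458 in AktI and 3266 to 4534 in wild type CTL. The Gzmd probe sets ranked 57 to 166 in PDK1 null and 23 to 103 in Cre control CTL, and 1416 to 2148 in AktI and 295 to 425 in wild type CTL. Gzmc ranked 88 to 142 in PDK1 null and 79 to 107 in Cre control CTL, and 1928 to 3016 in AktI and 1683 to 2118 in wild type CTL. Gzmf ranked 250 to 545 in PDK1 null and 191 to 231 in Cre control CTL, and 12364 to 15302 in AktI and 6077 to 8000 in wild type CTL. The reference cultures of the experiments, Cre control with 4OHT and wild type without it, thus differed in where these granzymes stood on the array. Genotype, 4OHT and the experiment cannot be told apart in that difference.

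**Figure D2:**
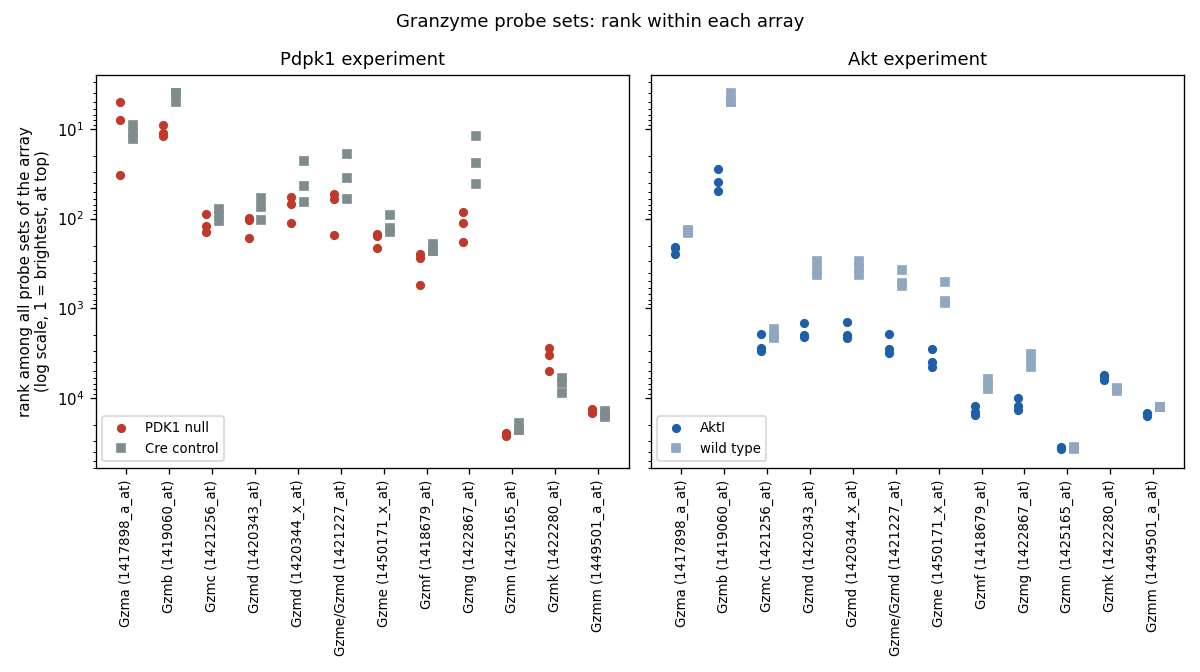
Rank of each granzyme probe set among the 45037 probe sets of each array (log axis, the brightest at the top), PDK1 null beside Cre control on the left and AktI beside wild type on the right, 1 point per array. Gzmb is among the first 49 on every array, while Gzmg stands at 12 to 181 in the Pdpk1 experiment and at 3266 to 13458 in the Akt experiment.

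In the Pdpk1 experiment Gzmk, Gzmm and Gzmn ranked below all of these. In the Akt experiment Gzmk ranked above Gzmf and Gzmg in AktI CTL and overlapped Gzmf in wild type CTL, and Gzmm overlapped Gzmf in AktI CTL. Gzmk ranked 2755 to 4965 in PDK1 null and 5918 to 8744 in Cre control CTL, and 5606 to 6257 in AktI and 7685 to 8313 in wild type CTL. Gzmm ranked 13335 to 14488 in PDK1 null and 13966 to 16153 in Cre control CTL, and 14603 to 15976 in AktI and 12446 to 12668 in wild type CTL. Gzmn was below background on every array but those of the Cre control group.

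**Figure D3:**
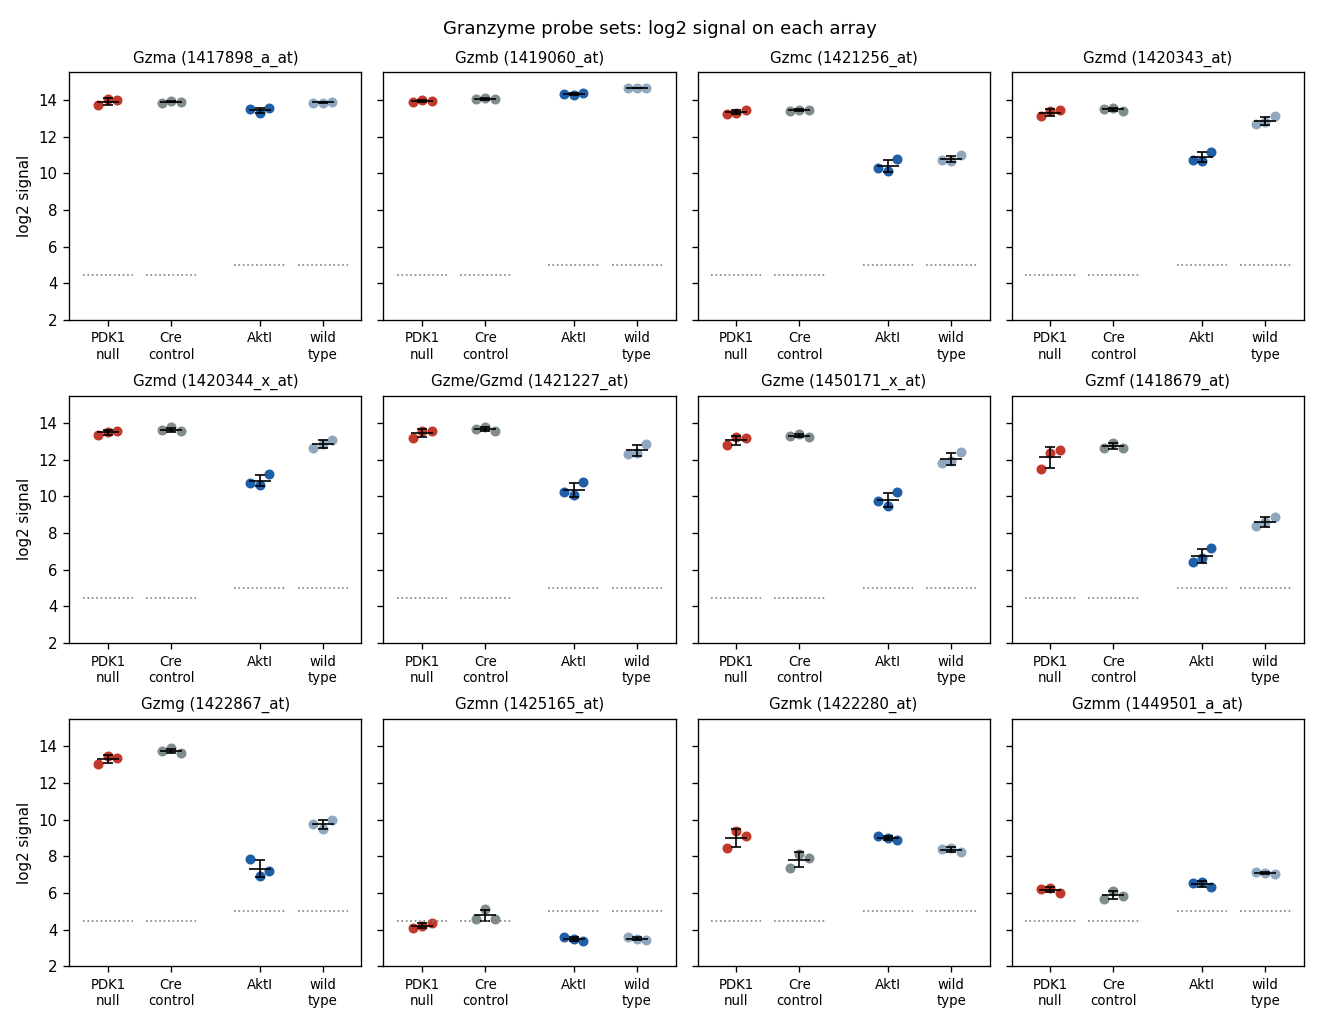
Log2 signal (y axis) of the 12 granzyme probe sets on each of the 12 arrays, PDK1 null left of Cre control and AktI left of wild type. Points are arrays, the bar and whiskers are the mean and SD (n = 3), and dotted lines are the background levels of 4.45 and 5.01. With AktI the points of Gzmd, Gzme, Gzmf and Gzmg all lie below those of wild type CTL.

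Inhibition of Akt lowered the mRNAs of Gzmd, Gzme, Gzmf and Gzmg by 3.64-fold to 5.40-fold, whereas Gzma and Gzmb stayed under the 1.5-fold minimum and Gzmk rose. Of the 12 probe sets 8 passed with AktI, 7 lower and 1 higher, where 1.94% of all probe sets passed (0.739% lower and 1.2% higher). Without the fold minimum 10 of the 12 had an adjusted p under 0.05 in limma (5.17% of all probe sets), and SAM called 8 at 1.5-fold or more (2.08%). The median change of the 12 was -1.24, beside -0.01 over all probe sets.

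Gzmg, a member of the cluster found in rodents, had the largest change. Its log2 signal was 7.83, 6.90 and 7.22 in AktI replicates 1, 2 and 3, against 9.77, 9.49 and 9.99 in wild type replicates 1, 2 and 3. All AktI values lay below all wild type values, and Gzmg fell 5.40-fold (log2 fold change -2.43, SE 0.218, limma adjusted p = 0.000582).

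The 2 probe sets that name Gzmd alone gave nearly the same values. The first had 10.74, 10.68 and 11.17 in AktI CTL, against 12.66, 12.82 and 13.10 in wild type CTL. The groups did not overlap, and the fall was 3.99-fold (-1.998, SE 0.15, limma adjusted p = 0.000242). The second had 10.74, 10.63 and 11.22 in AktI CTL, against 12.65, 12.85 and 13.09 in wild type CTL, a fall of 4.01-fold (-2.004, SE 0.163, limma adjusted p = 0.000369). Gzme was at 9.72, 9.49 and 10.24 in AktI CTL, against 11.82, 11.91 and 12.40 in wild type CTL. It fell 4.67-fold (-2.22, SE 0.205, limma adjusted p = 0.000677), and the probe set that names both Gzme and Gzmd fell 4.44-fold (-2.15, SE 0.195, limma adjusted p = 0.00061). That probe set had 10.21, 10.07 and 10.78 in AktI CTL, against 12.31, 12.38 and 12.83 in wild type CTL.

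Gzmf was dimmer in this experiment and fell by a similar factor. Its signals were 6.44, 6.64 and 7.18 in AktI CTL, against 8.37, 8.60 and 8.89 in wild type CTL, above background in both. Gzmf fell 3.64-fold (-1.86, SE 0.192, limma adjusted p = 0.00122). The falls of Gzmd, Gzme, Gzmf and Gzmg passed without any 1 array as well, with adjusted p from 0.000363 to 0.00757.

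As AktI was given to part of each mouse's culture, the change can be read mouse by mouse, with replicate numbers taken as the mice. For Gzmg it was -1.95, -2.59 and -2.77 in mice 1, 2 and 3, and for Gzmf -1.93, -1.95 and -1.71. For Gzme it was -2.10, -2.41 and -2.16, and for the Gzmd probe sets it lay between -2.23 and -1.88. Every mouse thus had a change of these genes far from 0, and mouse 2 had the largest for Gzmd and Gzme, mouse 3 for Gzmg.

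**Figure D4:**
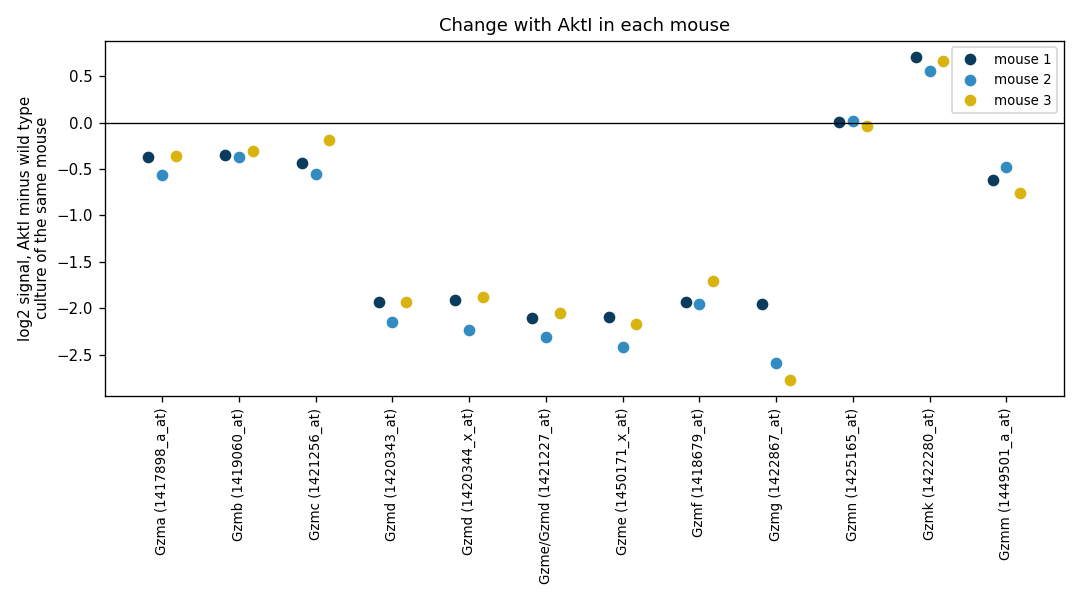
Log2 signal of the AktI culture minus that of the wild type culture with the same replicate number, taken as the same mouse (y axis), for each granzyme probe set, 1 point per mouse. Gzmd, Gzme, Gzmf and Gzmg lie between -2.77 and -1.71 in all 3 mice, Gzma, Gzmb and Gzmc between -0.56 and -0.18, and Gzmk above 0.

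Granzyme B, the caspase-activating member, moved far less. Gzmb had 14.30, 14.26 and 14.37 in AktI CTL, against 14.65, 14.64 and 14.68 in wild type CTL, with no overlap and a very small spread. The change was -0.34 (SE 0.0638, limma adjusted p = 0.0192), which is 1.27-fold and under the minimum. Gzma, encoding the tryptase granzyme A, had 13.48, 13.27 and 13.55 in AktI CTL, against 13.86, 13.83 and 13.91 in wild type CTL. It too was lower without overlap and under the minimum (-0.43, SE 0.0846, limma adjusted p = 0.0231, 1.35-fold). Without 1 array the adjusted p reached 0.0777 for Gzma and 0.0873 for Gzmb.

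The mean of the 6 probe sets of Gzmd, Gzme, Gzmf and Gzmg changed by -1.77 relative to Gzmb with AktI and by -0.21 in PDK1 null against Cre control CTL. These genes were grouped with their falls known, so this is a description and no test. How far the top of the scale compressed the change of Gzmb was not tested. Of the 321 probe sets with a wild type mean of at least 13, 2 passed with AktI (0.623%), both lower. The changes of all 321 ran from -0.73 to 0.36.

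Gzmc lies between Gzmf and Gzmb and has a promoter like that of Gzmd, but it did not pass. It had 10.26, 10.12 and 10.79 in AktI CTL, against 10.70, 10.68 and 10.97 in wild type CTL, and the groups overlapped. Its change was -0.39 (95% interval -0.77 to -0.01, limma adjusted p = 0.264), outside the interval of the first Gzmd probe set (-2.34 to -1.66). The spread came from mouse 3, and without its AktI culture Gzmc passed (-0.59, limma adjusted p = 0.0331). Per mouse the change of Gzmc was -0.43, -0.55 and -0.18.

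Gzmk, encoding the tryptase granzyme K, went the other way. Its signals were 9.10, 9.01 and 8.88 in AktI CTL, against 8.40, 8.45 and 8.22 in wild type CTL, without overlap. Gzmk rose 1.56-fold (0.64, SE 0.0892, limma adjusted p = 0.00502). The rise was close to the minimum and was 0.57, under it, without wild type replicate 3. It was also lost in 1 model of all 12 arrays (adjusted p = 0.113).

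Gzmm, encoding the methionine-specific granzyme M, had 6.54, 6.61 and 6.30 in AktI CTL, against 7.16, 7.09 and 7.06 in wild type CTL. Gzmm fell 1.54-fold (-0.62, SE 0.0889, limma adjusted p = 0.00575), and without AktI replicate 3 its change of -0.53 was under the minimum. Gzmn, which was below background on all 6 arrays, had 0.00 (limma adjusted p = 0.996), and a fall could not have been seen. In all, 9 of the 12 probe sets were lower in all AktI cultures than in any wild type culture (12.1% of all probe sets) and 1 was higher (11.4%).

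In PDK1 null CTL no granzyme mRNA passed, and the largest changes were those of Gzmk, Gzmf and Gzmn. Of the 12 probe sets 0 passed in limma, where 1.02% of all probe sets passed. At an unadjusted p under 0.05 there were 5 (15.2% of all probe sets), and the significance analysis of microarrays (SAM) called 1, Gzmk (1.19%). The median change of the 12 was -0.16, beside -0.01 over all probe sets.

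Gzmk had the largest change. Its signals were 8.45, 9.39 and 9.11 in PDK1 null CTL, against 7.37, 8.15 and 7.93 in Cre control CTL, so every PDK1 null value lay above every Cre control value. Its change of 1.17, or 2.25-fold, had a 95% interval of 0.58 to 1.76 (SE 0.258) and missed the threshold (limma adjusted p = 0.068). Gzmk passed without PDK1 null replicate 1 (1.44, limma adjusted p = 0.0357), and the adjusted p ran from 0.0357 to 0.196 when single arrays were left out. It also passed in 1 model of all 12 arrays (limma adjusted p = 0.00773).

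The genes that fell most with AktI had lower mean signals in PDK1 null CTL, with none that passed. Gzmf had 11.49, 12.39 and 12.52 in PDK1 null CTL, against 12.64, 12.93 and 12.65 in Cre control CTL. The groups did not overlap, but PDK1 null replicate 1 stood apart, and the change of -0.61 was -0.28 without it (limma adjusted p = 0.282 with all arrays and 0.369 without it). Gzmg had 13.03, 13.46 and 13.37 in PDK1 null CTL, against 13.73, 13.89 and 13.64 in Cre control CTL, with no overlap (-0.46, SE 0.119, limma adjusted p = 0.106). Gzme had 12.78, 13.22 and 13.19 in PDK1 null CTL, against 13.29, 13.42 and 13.23 in Cre control CTL (-0.25, limma adjusted p = 0.38).

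PDK1 null replicate 1 had the lowest signal of all 6 arrays for each of the Gzmd, Gzme, Gzmf and Gzmg probe sets. It was also the lowest for Gzma, Gzmb, Gzmc and Gzmn, and not for Gzmk or Gzmm, so this was no trait of Gzmd to Gzmg alone. The Gzmd probe sets had 13.11, 13.38 and 13.43, and 13.36, 13.54 and 13.59, in PDK1 null CTL, against 13.48, 13.57 and 13.38, and 13.64, 13.76 and 13.54, in Cre control CTL. They overlapped, with changes of -0.17 and -0.15 (limma adjusted p = 0.486 and 0.492). The probe set that names Gzme and Gzmd had 13.20, 13.59 and 13.57 in PDK1 null CTL, against 13.67, 13.81 and 13.56 in Cre control CTL (-0.23, limma adjusted p = 0.427).

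Gzma, Gzmb and Gzmc moved by 0.11 or less on the log2 scale. Gzmb had 13.90, 13.99 and 13.94 in PDK1 null CTL, against 14.02, 14.09 and 14.03 in Cre control CTL, a difference without overlap that did not pass (-0.11, 95% interval -0.26 to 0.04, limma adjusted p = 0.511). Gzma had 13.70, 14.05 and 13.99 in PDK1 null CTL, against 13.86, 13.91 and 13.89 in Cre control CTL (0.02, limma adjusted p = 0.945). Gzmc had 13.25, 13.31 and 13.47 in PDK1 null CTL, against 13.37, 13.47 and 13.45 in Cre control CTL (-0.09, limma adjusted p = 0.686).

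Gzmm had 6.21, 6.28 and 6.02 in PDK1 null CTL, against 5.67, 6.11 and 5.84 in Cre control CTL (0.30, limma adjusted p = 0.293). Gzmn had 4.09, 4.21 and 4.35 in PDK1 null CTL, all below background, against 4.60, 5.13 and 4.59 in Cre control CTL (-0.56, limma adjusted p = 0.112). The groups overlapped for Gzmm and not for Gzmn. In all, 5 of the 12 probe sets were lower in all PDK1 null cultures than in any Cre control culture (11.6% of all probe sets) and 1 was higher (9.68%).

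Most of the granzyme probe sets were bright in this experiment. Of the 175 probe sets with a Cre control mean of at least 13, 8 were granzymes, and 0 of the 175 passed. Their changes ran from -0.46, which was that of Gzmg, to 0.16. How far the scale compressed the granzymes among them was not tested.

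**Figure D5:**
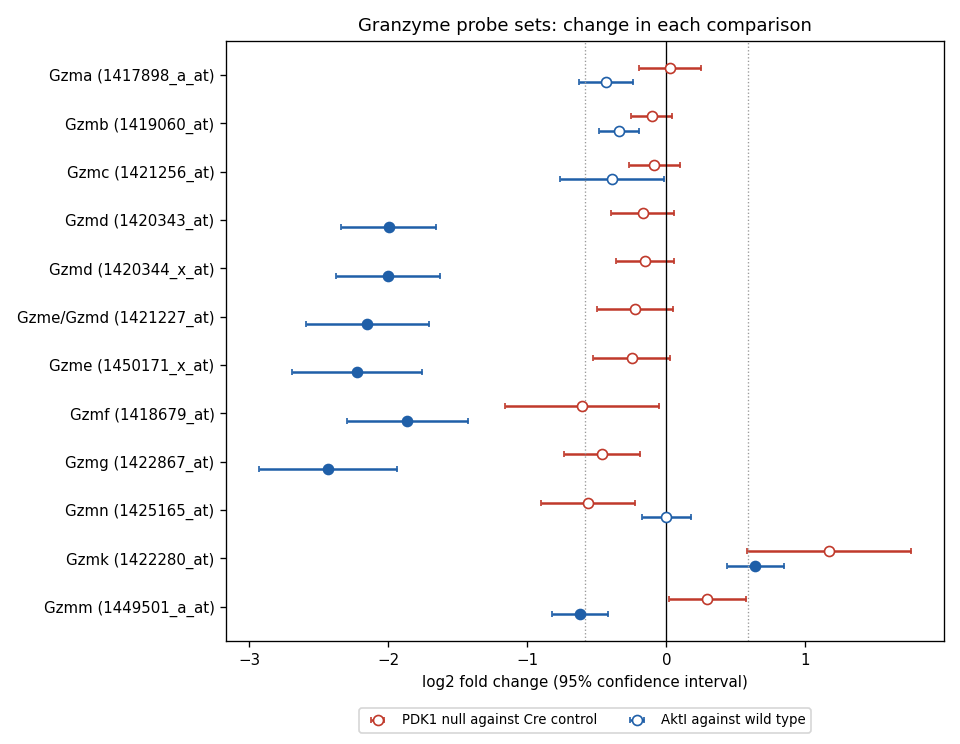
Log2 fold change (x axis) of each granzyme probe set in PDK1 null against Cre control (upper, red) and AktI against wild type (lower, blue), with 95% confidence intervals from limma (n = 3 per group). Filled points passed, and dotted lines mark 1.5-fold. With AktI 8 of the 12 are filled, and in PDK1 null CTL 0.

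The effects themselves differed for 6 of the 12 probe sets, all with the AktI effect the more negative, where 0.395% of all probe sets had effects that differed (0.229% in this direction). The PDK1 null effect minus the AktI effect was 1.83 and 1.85 for the Gzmd probe sets (interaction in limma over 12 arrays, adjusted p = 0.000625 and 0.000837). It was 1.97 for Gzme (adjusted p = 0.00375), 1.93 for the probe set of Gzme and Gzmd (0.0034) and 1.97 for Gzmg (0.00557). These 5 passed without any 1 array. Each of the 5 ranked higher on the arrays of the Pdpk1 experiment than on those of the Akt experiment. So did Gzmc and Gzmf, whose effects did not pass as different. For Gzmc they differed by 0.30 (limma adjusted p = 0.664).

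The effects on Gzmf differed by 1.26, which did not pass in limma (adjusted p = 0.176), although it did without PDK1 null replicate 1 (1.58, adjusted p = 0.0159). Gzmm differed by 0.91 in limma (adjusted p = 0.0242), with a change of 0.30 in PDK1 null and -0.62 in AktI CTL. The call of Gzmm ended without Cre control replicate 1 or 3, PDK1 null replicate 2, wild type replicate 1 or 2, or AktI replicate 1 or 3 (adjusted p from 0.0528 to 0.077). For Gzmk, higher in both, the difference of 0.53 had an interval of -0.13 to 1.18 (limma adjusted p = 0.598). The limma interaction gave adjusted p = 0.207 for Gzma (0.46), 0.331 for Gzmb (0.23) and 0.258 for Gzmn (-0.56).

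The signals of most of these genes varied together from culture to culture, and those of Gzmg less so. After the group means were taken off, the 15 pairs of Gzmd, Gzme, Gzmf and Gzmg probe sets had correlations of 0.21 to 0.99 over the 12 arrays, with a median of 0.85. The 5 pairs with Gzmg were the lowest of these, at 0.21 to 0.44, and Gzmc had 0.88 to 0.91 with the Gzmd and Gzme probe sets. All 51 pairs outside those 15 had -0.51 to 0.91, with a median of 0.44. All pairs share their arrays, and the Gzmd and Gzme probe sets may each read both transcripts, which was not tested.

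Of the genes that make, store, deliver or control granzymes, Prf1, encoding perforin, fell with AktI by about as much as Gzmd and Gzme. A list of 31 genes, 25 of these kinds and 6 proteases that lie beside the granzymes, had 29 measured. With AktI 2 rose and 4 fell (1.2% and 0.739% of all probe sets), and in PDK1 null CTL 1 rose and 1 fell (0.737% and 0.282%). The median change of the list was -0.11 with AktI and -0.03 in PDK1 null CTL, beside -0.01 over all probe sets in both.

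Among the delivery genes (6 measured) 1 fell with AktI and 0 passed in PDK1 null CTL. Prf1 averaged 9.95 ± 0.213 in AktI CTL and 12.1 ± 0.265 in wild type CTL (SD, n = 3 each) and fell by 2.20 on the log2 scale (limma adjusted p = 0.000164). It averaged 11.3 ± 0.392 in PDK1 null CTL and 12.01 ± 0.245 in Cre control CTL (-0.67, limma adjusted p = 0.14). The effects differed by 1.53 (limma adjusted p = 0.026). This call held in 4 of the 12 fits that left out 1 array, those without Cre control replicate 2, PDK1 null replicate 1, wild type replicate 2 or AktI replicate 3, and the others had adjusted p from 0.0573 to 0.0846.

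Of the genes for processing and storage (4 measured) 0 passed in either comparison. Srgn, encoding the proteoglycan that holds granzymes in the granule, changed by -0.04 with AktI and by 0.12 in PDK1 null CTL (limma adjusted p = 0.869 and 0.452). Ctsc, encoding the peptidase that activates progranzymes, had 0.22 with AktI and 0.40 in PDK1 null CTL (limma adjusted p = 0.112 and 0.0343), both under 1.5-fold.

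Of the inhibitors (4 measured of 6) 1 fell in each comparison. Serpinb9, which inhibits granzyme B, averaged 10.2 ± 0.0394 in AktI CTL and 11.1 ± 0.0649 in wild type CTL, a fall of 0.94 on the log2 scale (limma adjusted p = 0.00019). It averaged 9.75 ± 0.0355 in PDK1 null CTL and 10.5 ± 0.281 in Cre control CTL and fell by 0.79 (limma adjusted p = 0.0245). The second call ended without Cre control replicate 1, PDK1 null replicate 1 or PDK1 null replicate 3 (adjusted p from 0.0651 to 0.092). Serpinb9 therefore passed in PDK1 null CTL where Gzmb had -0.11.

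Among transcription factors (9 measured) 2 rose and 1 fell with AktI, and 1 rose in PDK1 null CTL. Klf2, a factor of resting T cells, rose by 2.58 with AktI and by 1.37 in PDK1 null CTL (limma adjusted p = 0.000167 and 0.0468). The call in PDK1 null CTL held without PDK1 null replicate 2 but not without any other array (adjusted p from 0.105 to 0.163). Prdm1, encoding Blimp-1, fell by 0.70 with AktI (limma adjusted p = 0.00104) and had -0.64 in PDK1 null CTL (limma adjusted p = 0.16). Foxo3, encoding a forkhead factor that Akt phosphorylates, rose by 0.67 with AktI (limma adjusted p = 0.0212), which ended without wild type replicate 1 or 3 or AktI replicate 2 or 3 (adjusted p from 0.064 to 0.075).

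The proteases that lie beside the granzymes on chromosome 14 (6 measured) were above background for 2 of the 6 in the Pdpk1 experiment and 3 of the 6 in the Akt experiment, and 1 fell with AktI. Mcpt8, encoding a protease of basophils, averaged 4.87 ± 0.47 in AktI CTL, below background, and 5.96 ± 0.407 in wild type CTL, and fell by 1.09 on the log2 scale (limma adjusted p = 0.0465). That call held without AktI replicate 3 but not without any other array (adjusted p from 0.0816 to 0.139). Mcpt8 averaged 7.38 ± 0.577 in PDK1 null CTL and 7.24 ± 0.485 in Cre control CTL. Of the other 5 basophil and mast cell markers 0 passed with AktI. Fcer1a and Ms4a2, the receptor chains that define these cells, were below background in all groups. Gata2 and Tpsb2 were above background in all groups, and Cpa3 was above it in the Pdpk1 experiment only.

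Markers of other cells are given by their values. The summed signal of 6 mast cell and basophil markers was 7.19 to 7.26 in AktI and 7.36 to 7.79 in wild type CTL, and 7.66 to 8.33 in PDK1 null and 7.82 to 8.37 in Cre control CTL. Of the 6, only 2 were above background in AktI, 3 in wild type, 4 in PDK1 null and 4 in Cre control CTL. The sums include the markers below background and are no measure of cell content. The summed signal of 2 NK cell markers was 8.01 to 8.48 in AktI and 7.56 to 8.10 in wild type CTL, and 6.32 to 6.92 in PDK1 null and 5.81 to 5.99 in Cre control CTL. In the NK list Klre1, encoding a lectin receptor, rose in PDK1 null CTL (0.80, limma adjusted p = 0.0462), which ended without any 1 Cre control array or PDK1 null replicate 1 (adjusted p from 0.112 to 0.162). With AktI Klre1 had 0.41 and did not pass (limma adjusted p = 0.283). Klre1 was above background in all groups, while Ncr1 was below it in all. The part of NK cells in the values of Gzmk was not tested. Over all 25 markers measured, 2 rose in PDK1 null CTL, Klre1 and the T cell gene Cd2 (0.67, limma adjusted p = 0.0151), and 1, Mcpt8, fell with AktI. The call of Cd2 ended without Cre control replicate 2 (under 1.5-fold) or 3 or PDK1 null replicate 1 or 3 (limma adjusted p from 0.0457 to 0.0582). Among B cell and myeloid markers 0 passed in limma.

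The genes whose pattern over the 12 arrays was most like that of a granzyme, after the mean of each experiment was taken off, were read as a description. For Gzmb these were Gadd45g, Prf1 and Stx7, with Pearson r of 0.991, 0.99 and 0.986. For the brighter Gzmd probe set they were Auh, Fosl2 and Pdcd1lg2, with 0.97, 0.958 and 0.954. For Gzmk they were Tubb5, Zmym1 and Kif2a, with 0.947, 0.941 and 0.939. The arrays of a group share their treatment, so the group means make up much of each correlation. Prf1, the nearest to Gzmb after Gadd45g, fell by 2.20 with AktI where Gzmb had -0.34, so a like pattern did not mean a like size.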

How the data were processed

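RNA of 12 CTL cultures was hybridized to Affymetrix mouse arrays. The authors made the deposited log2 signals with the robust multichip averaging of Affymetrix Expression Console 1.1 (background correction, quantile normalization and a summary of the probes), and the signals were used as deposited. Of 45101 probe sets, 64 controls were left out and 45037 were tested. Genes were named from GEO's platform annotation (34945 probe sets with 1 gene, 932 with several, 9160 with none). Every probe set naming a listed granzyme was reported. Of the companion genes, each by its brightest probe set, those that passed in any comparison were named, with Prf1, Srgn, Ctsc and Serpinb9. The members and the lists were chosen with earlier results of these data known. For Gzmb, Gzmd and Gzmk the 3 nearest genes above background by Pearson r were taken.

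Each comparison was fitted in R 4.3.3 with limma 3.58.1 (lmFit, eBayes) on its own 6 arrays, and the difference of effects as an interaction over 12 arrays, with Benjamini-Hochberg adjustment over all 45037. The number of arrays limits the precision. Promoters of RefSeq (GRCm38.p6) were aligned with Biopython 1.88, with the first listed start for Gzmm, which has several. Alternatives were trend and robust settings, quantile normalization, equal medians, dim probe sets left out, other fold minimums, a replicate block, single arrays left out, 1 model of 12 arrays, the brightest probe set of each gene, and SAM (20 relabellings, 5% false discovery rate), the study's method. The class of probe sets at 13 or more was a later choice, made on seeing these data. Scripts were tested on simulated data. Cultures with the same number in AktI and wild type were taken as from the same mouse, as the sample titles give replicate numbers and name no mouse. Their array deviations correlated with r of 0.0343 to 0.17, against -0.102 to 0.0383 for other pairs. These ranges overlap, so they do not settle the pairing. PDK1 null and Cre control CTL came from mice of different genotype and share only numbers.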

Additional observations from a re-analysis of the deposited data

Results flagged for a closer look

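The effects of Pdpk1 deletion and of AktI differed, in the limma interaction test, for 6 granzyme probe sets. The PDK1 null effect minus the AktI effect was 1.83 and 1.85 for the probe sets of Gzmd, 1.97 for Gzme, 1.93 for the probe set of Gzme and Gzmd, and 1.97 for Gzmg. On these 5 probe sets the Cre control signals ranked 12 to 142 and the wild type signals 295 to 4534 of 45037. For Gzmm, which was far from the top of the scale in both experiments, it was 0.91. This call of Gzmm held in only 5 of the 12 fits that left out 1 array (limma adjusted p up to 0.077). The part of the array scale in these differences was not tested.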

How the results depend on the processing

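Of the 12 granzyme probe sets 0 passed in PDK1 null CTL, and 1 (Gzmk) passed with the replicate block (adjusted p = 0.00341), in 1 model of all 12 arrays (0.00773) and with SAM. Leaving out single arrays gave 0 to 1 in PDK1 null CTL, 7 to 8 with AktI (8 with all arrays) and 5 to 7 for the difference (6 with all arrays). The replicate block changed no granzyme call with AktI or in the difference. In PDK1 null CTL, where samples share only a number, it also made Prf1 pass (0.0431) and ended the call of Klre1 (0.0786), and in the difference Klf2 passed (0.0317). Over all probe sets the counts moved more, from 459 in PDK1 null CTL to 835 with no fold minimum, 135 with a 2-fold minimum and 194 to 637 without single arrays. They moved from 872 with AktI to 2329 and 262 with the same minimums, and from 178 for the difference to 74 with the 2-fold minimum and 104 to 220 without single arrays. The cause of these shifts was not tested, beyond the fold minimums, which count more or fewer by construction. No granzyme call reversed direction. The 3 arrays per group limit the precision, and a fall of Gzmn with AktI could not be seen, as its signal was below background.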
